A study of Mus musculus with 2 samples.

Results

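The loci of the NF-kappaB subunits and of their main inhibitor were examined in the maps of open chromatin of RAW264 cells, a mouse line resembling macrophages. Such cells turn into bone-resorbing osteoclasts in response to RANKL, the ligand of the receptor RANK (receptor activator of NF-kappaB). Accessible sites were mapped by DNase-seq, a method that sequences the small pieces of DNA cut loose where DNase I can reach the chromatin. A peak is a stretch that the authors' peak caller marked as richer in such fragments. The design had 2 libraries, 1 from cells treated for 24 hours with 234 ng/ml of RANKL fused to GST and 1 from the same line, grown in the same medium, without RANKL. With 1 library per condition the values below carry no error between replicates and no such test was possible, so differences describe these 2 libraries.

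The loci were taken as 6 fixed windows on the mouse build mm9, and every peak that overlapped a window was counted. The windows were chr19:5590001-5700000 for Rela, chr11:23590001-23720000 for Rel, chr7:20140001-20260000 for Relb, chr3:135200001-135400000 for Nfkb1, chr19:46330001-46440000 for Nfkb2 and chr12:56540001-56640000 for Nfkbia. They held 49 of the 29939 peaks of both lists, 27 of 16447 in the RANKL list and 22 of 13492 in the list without RANKL. The windows are wider than the genes and also reach other genes. In the RefSeq gene table of GRCm38.p6, used only for gene order, the nearest protein-coding genes on either side are Kat5 and Sipa1 for Rela, Pus10 and Papolg for Rel, Clasrp and Clptm1 for Relb, Manba and Slc39a8 for Nfkb1, Gbf1 and Psd for Nfkb2, and Psma6 and Aldoart2 for Nfkbia. Gene positions on mm9 were not used here, so a peak is given by its window and position and is not assigned to a promoter, an exon or an intron. The lists hold no expression values, and the macrophage identity of the line was not checked with them.

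NF-kappaB is a family of dimeric transcription factors that share a DNA-binding region, the Rel homology region. RANKL binding to its receptor RANK starts a canonical route, in which the inhibitor IkappaB-alpha (Nfkbia) is phosphorylated and degraded and dimers that contain RelA or c-Rel enter the nucleus. It also starts a slower alternative route, in which the Nfkb2 precursor is cut to a smaller subunit that pairs with RelB. Mice that lack both Nfkb1 and Nfkb2 form no osteoclasts, and several of these genes, Nfkbia and Nfkb2 among them, are known to be targets of NF-kappaB itself.

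Because of that known feedback, the promoters of the members in the RefSeq promoter table are shown here with their matches to the kappaB consensus, the DNA word bound by NF-kappaB. The table had 6 records for 4 of the 6 members: 3 for Nfkb2 and 1 each for Rel, Rela and Nfkbia. Each holds 250 bases before and 50 bases after a gene start on GRCm38.p6. These coordinates belong to another build than the peaks and cannot be set against them, so whether a promoter lies under a peak was not determined. The sequences run 5′ to 3′ on the gene's strand, and capitals mark the matches on either strand. They lie at chr11:23770920-23771219 on the minus strand for Rel, chr19:5637291-5637590 on the plus strand for Rela, chr19:46304487-46304786 and chr19:46305445-46305744 on the plus strand for the first and second Nfkb2 records, and chr12:55492598-55492897 on the minus strand for Nfkbia.
Rel promoter: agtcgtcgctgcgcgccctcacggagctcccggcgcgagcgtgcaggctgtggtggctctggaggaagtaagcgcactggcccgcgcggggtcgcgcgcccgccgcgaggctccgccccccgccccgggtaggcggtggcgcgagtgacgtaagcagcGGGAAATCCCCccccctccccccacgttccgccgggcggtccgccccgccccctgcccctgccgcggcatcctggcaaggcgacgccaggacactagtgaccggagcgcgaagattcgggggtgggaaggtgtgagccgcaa
Rela promoter: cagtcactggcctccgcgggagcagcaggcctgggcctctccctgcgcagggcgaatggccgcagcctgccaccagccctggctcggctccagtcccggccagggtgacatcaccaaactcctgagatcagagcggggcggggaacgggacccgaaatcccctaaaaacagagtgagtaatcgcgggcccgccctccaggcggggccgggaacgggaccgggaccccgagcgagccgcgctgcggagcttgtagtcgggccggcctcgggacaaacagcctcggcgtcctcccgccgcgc
Nfkb2 promoter, first record: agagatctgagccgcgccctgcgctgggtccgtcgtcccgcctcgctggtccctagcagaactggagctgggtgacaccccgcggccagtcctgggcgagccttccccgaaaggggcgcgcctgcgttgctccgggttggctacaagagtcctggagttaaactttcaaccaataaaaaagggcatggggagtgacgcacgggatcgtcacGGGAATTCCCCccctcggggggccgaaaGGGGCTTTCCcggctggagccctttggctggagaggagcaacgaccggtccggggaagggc
Nfkb2 promoter, second record: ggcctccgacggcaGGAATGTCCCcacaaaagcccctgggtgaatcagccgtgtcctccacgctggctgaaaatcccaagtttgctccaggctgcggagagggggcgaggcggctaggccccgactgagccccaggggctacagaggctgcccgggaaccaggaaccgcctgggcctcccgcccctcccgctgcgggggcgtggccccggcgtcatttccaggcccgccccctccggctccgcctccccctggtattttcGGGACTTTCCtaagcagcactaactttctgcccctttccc
Nfkbia promoter: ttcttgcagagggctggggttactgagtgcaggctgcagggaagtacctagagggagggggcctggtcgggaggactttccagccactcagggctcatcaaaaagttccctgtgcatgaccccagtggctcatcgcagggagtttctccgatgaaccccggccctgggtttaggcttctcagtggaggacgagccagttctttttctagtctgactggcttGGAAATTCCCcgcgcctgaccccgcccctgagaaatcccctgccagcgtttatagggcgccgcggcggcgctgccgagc

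The consensus was found in the promoters of Rel, Nfkb2 and Nfkbia and not in that of Rela, where these letters are not in this window. The consensus searched was GGG, then A or G, any base, A or T, 2 letters of C or T, and CC. Of all 32851 promoter records of the same length, 4.51% held it. Those records were not matched to the members in G and C content. In the Rel promoter and in the first Nfkb2 record, 2 matches overlap in a single run of capitals. The second Nfkb2 record holds GGGACTTTCC, a form of the consensus, and the third record, which overlaps the second, holds that same copy. This word was counted over all records because it was seen here, and 0.155% carry it. A single exact word cannot be more frequent than the consensus, so this share does not set Nfkb2 apart. The word TGANTCA, where N is any base, was searched on both strands. It was present in the second Nfkb2 record, as TGAATCA, and in 7.81% of all records. The records had a G and C content of 61.0% (Nfkbia) to 75.0% (Rel), against a median of 52.7% over all records. A match is a description of the letters and does not show binding.

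In each list, most peaks of the NF-kappaB windows overlapped a peak of the other list. Of the 27 RANKL peaks, 23 overlapped a peak without RANKL by at least 1 bp (85.2%, 95% Wilson interval 67.5 to 94.1%), and 4 were RANKL-only (14.8%, interval 5.92 to 32.5%), where 34.3% of the whole RANKL list was RANKL-only. Of the 22 peaks without RANKL, 15 overlapped a RANKL peak (68.2%, interval 47.3 to 83.6%). The other 7 were found only without RANKL (31.8%, interval 16.4 to 52.7%), near the 39.3% of that whole list. These intervals describe counting error alone and count each peak as an independent draw, although peaks that lie side by side are not. Each narrow RANKL peak on a broad peak counts as shared, also where several lie on the same broad peak, so these are shares of peaks and not of sites. With peaks of each list merged where closer than 1 kb, 15 of 19 RANKL regions of the windows were shared (78.9%, interval 56.7 to 91.5%). The share of the merged RANKL list was 60.8%, which that interval held.

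Peak density differed between the windows, and some peaks were among the strongest of their list. Together the windows held 35.1 RANKL peaks and 28.6 peaks without RANKL per Mb, against 6.41 and 5.26 per Mb over the span of both lists. That span is not matched to windows placed around genes, and windows around other genes were not counted for comparison. The Nfkb1 window lay below both values of the span, with 5.0 RANKL peaks per Mb and none without RANKL. The Rel window held 23.1 and 7.69 per Mb. In the Rela, Relb, Nfkb2 and Nfkbia windows the density was 41.7 to 63.6 RANKL peaks and 40.0 to 54.5 peaks without RANKL per Mb. The ratio of RANKL peaks to peaks without RANKL was 1.23 (95% exact conditional Poisson interval 0.673 to 2.26), beside 1.22 over the whole lists. Strength was read from the authors' score, ranked only within its own list with rank 1 the highest. A score or rank says nothing about a change between the lists. In the highest 10% of their list stood 4 of the 27 RANKL peaks (14.8%, interval 5.92 to 32.5%) and 7 of the 22 peaks without RANKL (31.8%, interval 16.4 to 52.7%), where by definition 10.0% of each list does. All 11 of these strong peaks were shared, and in the same part of the whole lists 95.3% of RANKL peaks and 99.0% of peaks without RANKL were shared.

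In the lower 50% by score, 7 of 9 RANKL peaks of the windows were shared, against 46.1% in the whole RANKL list. In the same part of the list without RANKL, 4 of 10 were shared, against 38.2% in that whole list. The interval of the RANKL share reached from 45.3 to 93.7%, so it held the value of the whole list. Those of the 7 shared RANKL peaks in the Rela, Nfkb2 and Relb windows each lay on a broad peak that also held a stronger RANKL peak, so they are not separate sites.

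**Figure D1:**
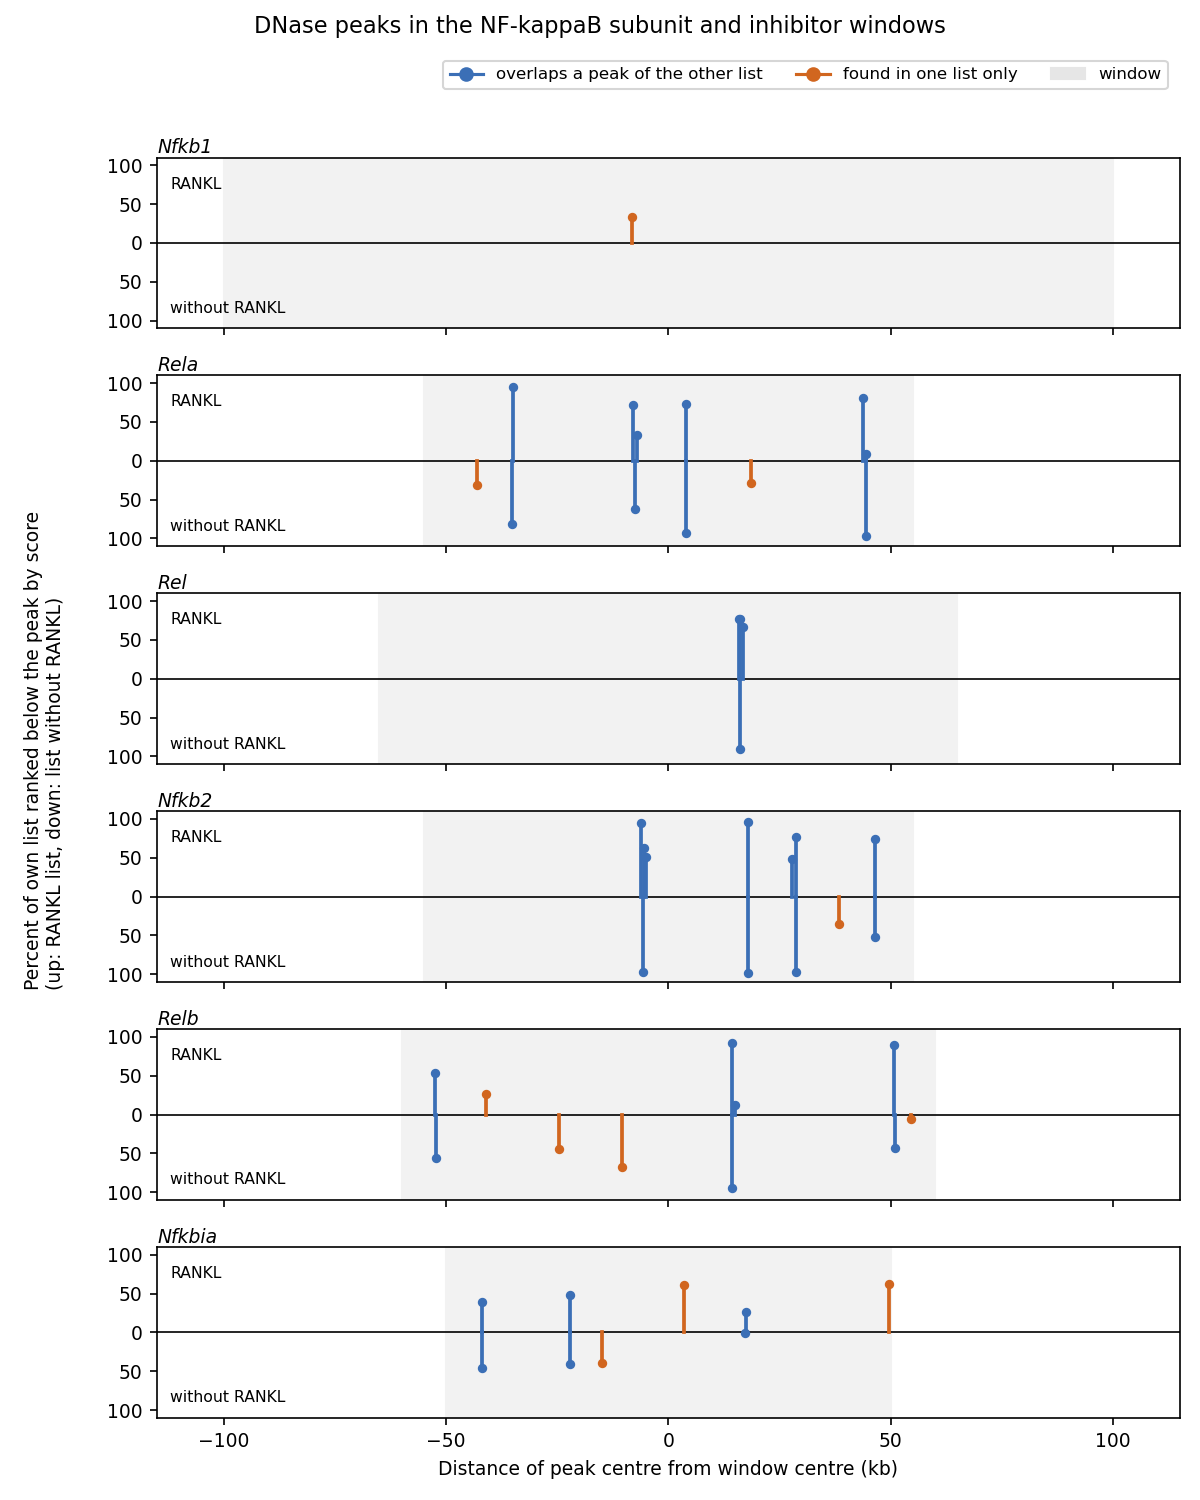
Each panel is 1 window (grey), with the distance of each peak's centre from the window centre in kb on the x axis. Lines point up for RANKL peaks and down for peaks without RANKL, and their length is the percent of the peak's own list that it outranks by score, with shared peaks in blue and peaks of a single list in orange. Shared peaks stand opposite each other in every window but Nfkb1, which holds a single RANKL-only peak of rank 10888 of 16447.

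**Figure D2:**
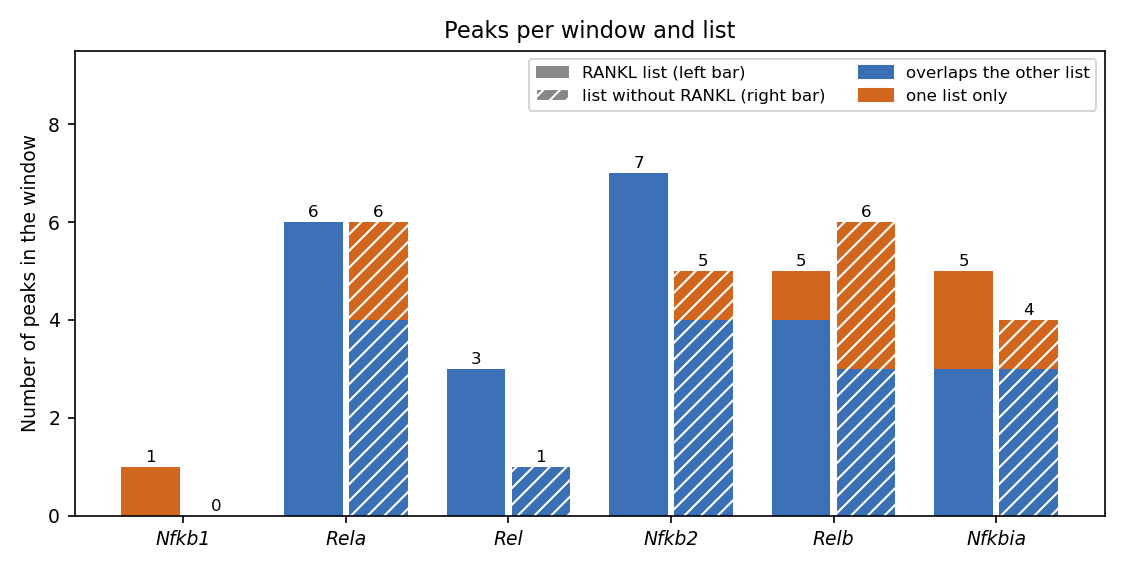
Bars give the number of peaks in each window, RANKL list on the left and list without RANKL on the right (hatched), divided into shared peaks (blue) and peaks of a single list (orange). RANKL-only peaks appear in the Nfkb1, Relb and Nfkbia windows, with 1, 1 and 2 peaks.

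Rela encodes RelA, the main transactivating subunit of the canonical route. Its window held 6 RANKL peaks and 6 peaks without RANKL. All 6 RANKL peaks were shared, and they lay on 4 of the 6 peaks without RANKL. The strongest RANKL peak, chr19:5609776-5610380, scored 302 (rank 762 of 16447) and was 605 bp wide. It lay inside a broad peak without RANKL at chr19:5609000-5610775 that scored 173 (rank 2569 of 13492). That site was thus in the highest 10% of the RANKL list and outside the highest 10% of the other.

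Near the middle of the Rela window the order of the 2 lists was the other way. The RANKL peak at chr19:5648729-5649228 scored 114 and had rank 4449 of 16447. Its partner without RANKL at chr19:5648041-5650073 scored 247 and had rank 903 of 13492. The strongest peak without RANKL in the window, chr19:5688191-5690547, scored 290 (rank 480) and held 2 RANKL peaks with scores of 146 and 52.0. A site at chr19:5636512-5638502 without RANKL, with a score of 123, also held 2 RANKL peaks, which scored 111 and 60.9.

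The 2 peaks of the Rela window without a RANKL partner were both in the lower 50% of their list. The peak at chr19:5601107-5602694 scored 77.0 (rank 9243) at 7.08 kb from its closest RANKL peak. The peak at chr19:5662696-5664542 scored 73.4 (rank 9674), with the nearest RANKL peak 13.5 kb away. Scores of both lists begin at 50.0, and the absence of a weak peak from a list is no proof of closed chromatin.

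Rel encodes c-Rel, a transactivating subunit that is abundant in blood cells. Its window held a single accessible site in each condition. With RANKL the site was called as 3 narrow peaks, at chr11:23670608-23671029 (score 128, rank 3765), chr11:23671084-23671412 (score 128, rank 3779) and chr11:23671512-23671881 (score 99.3, rank 5393). Without RANKL it was called as a single peak at chr11:23669457-23672492, which scored 224 (rank 1236, within the highest 10% of its list). At 3036 bp this was the widest of the 22 peaks without RANKL in the windows. The 3 RANKL peaks were separated by 54 and 99 bp and together filled 36.9% of it.

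Relb encodes RelB, the partner of the processed Nfkb2 product in the alternative route. Its window held 5 RANKL peaks, 4 of them shared, and 6 peaks without RANKL, 3 of them shared. The strongest site was the same in both lists. With RANKL it was called as a peak at chr7:20214232-20214668 with a score of 234 (rank 1356 of 16447) and a weaker one at chr7:20214875-20215193 with a score of 53.0 (rank 14378). Both lay inside the peak without RANKL at chr7:20213048-20215614, which scored 268 (rank 649 of 13492).

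A further shared site near the end of the Relb window stood at different places in the order of the lists. The RANKL peak at chr7:20250454-20250921 scored 201 and had rank 1792 of 16447, just outside the highest 10% of its list. The peak without RANKL at chr7:20249933-20251805 scored 90.3 and had rank 7753 of 13492, in the lower 50% of its list. The third shared site had a RANKL peak at chr7:20147453-20147707 with a score of 77.2 and a peak without RANKL at chr7:20146727-20148737 with a score of 111.

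The Relb window had the most peaks found only without RANKL, 3 of the 7 in all windows. They were 3 of its 6 peaks without RANKL, where 39.3% of that whole list was found only without RANKL. With so few peaks this does not set the window apart. The peak at chr7:20188965-20190221 scored 135 (rank 4345) and was the strongest of the 7, with the nearest RANKL peak 24.0 kb away. Another at chr7:20174581-20175928 scored 92.4 (rank 7539) and lay 15.5 kb from the RANKL list. The weakest, at chr7:20253590-20255448, scored 54.2 (rank 12648) and lay 2.67 kb away. The window also held a RANKL-only peak at chr7:20158806-20159058, which scored 57.7 (rank 12085 of 16447), 10.1 kb from the other list.

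Nfkb1 encodes a precursor that gives the DNA-binding partner of RelA in the classical dimer. Its window, at 200 kb the longest, held a single RANKL peak and no peak without RANKL. The RANKL-only peak at chr3:135291640-135291817 was 178 bp wide, scored 61.3 (rank 10888 of 16447) and lay 106 kb from the nearest peak without RANKL. That peak, at chr3:135184325-135186043 with a score of 113, was found only without RANKL and lay 14.0 kb before the start of the window.

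Around Nfkb1 the list without RANKL had no peak for 1146 kb, over the stretch chr3:135186044-136331896. Of its 13470 stretches between neighbouring peaks, 465 (3.45%) were at least as long, and the median was 41.1 kb. This is a share of stretches and not of positions. The stretch was taken because it holds the window centre, and a position falls more often in a long stretch. In the RANKL list the stretch at the window centre was 197 kb, and 15.9% of 16425 stretches were at least as long. Within the 1146 kb stretch the RANKL list held 2 peaks. They were the one in the window and a further peak at chr3:135489150-135489327 with a score of 67.1 (rank 9463). Both are in the lower 50% of the RANKL list.

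Nfkb2 encodes the precursor of the alternative route. Its window held 7 RANKL peaks, all of them shared, and 5 peaks without RANKL, 4 of them shared. The highest-scoring peak of the 6 windows lay at the same Nfkb2 site in both lists. Its RANKL peak at chr19:46402586-46403346 scored 347 (rank 552 of 16447) and, at 761 bp, was the widest of the 27 RANKL peaks. Its peak without RANKL at chr19:46401824-46404038 scored 366 (rank 203 of 13492).

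Another site of the Nfkb2 window was called as several RANKL peaks. Those at chr19:46378718-46379166, chr19:46379187-46379690 and chr19:46379733-46380164 scored 276 (rank 948), 90.5 (rank 6158) and 74.5 (rank 8125). They were 20 and 42 bp apart and lay inside a peak without RANKL at chr19:46378003-46380648 that scored 314 (rank 371). At chr19:46412361-46415061 a peak without RANKL with a score of 290 (rank 480) held 2 RANKL peaks, which scored 72.6 and 128. The 3 strongest peaks without RANKL in this window were all in the highest 10% of their list, as were 2 of the 7 RANKL peaks.

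Weaker sites completed the Nfkb2 window. The shared site near its end had a RANKL peak at chr19:46431318-46431694 with a score of 119 (rank 4144) and a peak without RANKL at chr19:46430689-46432137 with a score of 105 (rank 6454). The peak found only without RANKL, at chr19:46422627-46424246, scored 81.6 (rank 8703) at 7.07 kb from its closest RANKL peak.

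Nfkbia encodes IkappaB-alpha, which holds NF-kappaB dimers in the cytoplasm and is resynthesised after NF-kappaB activation. Its window held 5 RANKL peaks and 4 peaks without RANKL, with 3 shared sites. No peak of this window was in the highest 10% of its list. RANKL-only peaks numbered 2 of the 5, where 34.3% of the whole RANKL list was RANKL-only. This was the highest count of the 6 windows, beside 1 each in the Nfkb1 and Relb windows, but so few peaks do not set the window apart. The 2 were the strongest RANKL peaks of the Nfkbia window. The one at chr12:56593280-56593654 scored 87.9 (rank 6410 of 16447), was 375 bp wide and lay 3.47 kb past the centre of the window, 13.0 kb from the nearest peak without RANKL. The other, at chr12:56639387-56639607, scored 90.0 (rank 6203), 20.4 kb from the other list.

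The second of these lay at the edge of the window, 0.393 kb inside its end. Just outside that end, the nearest peak without RANKL was 20.0 kb away with a score of 51.5, and the nearest RANKL peak was 81.5 kb away with a score of 59.3. Of the other peaks of the 6 windows, the nearest to an edge was the Relb peak at chr7:20253590-20255448, 4.55 kb inside. A window ending slightly earlier would have left 1 RANKL-only peak at Nfkbia.

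Shared sites of the Nfkbia window were of moderate or low rank in both lists. Their RANKL peaks scored 65.1, 71.8 and 57.8, against 95.4, 87.3 and 50.7 for their partners without RANKL. The last of these, at chr12:56606682-56607945, had rank 13336 of 13492 and was close to the lowest score of its list. A peak at chr12:56574213-56576011, with a score of 86.0 (rank 8176), was found only without RANKL, 6.20 kb from the nearest RANKL peak.

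RANKL peaks were far narrower than their partners at every shared site, as over the whole lists. The median width of the 27 RANKL peaks was 363 bp (range 124 to 761 bp), and that of the 22 peaks without RANKL 1853 bp (range 1257 to 3036 bp). The medians of the whole lists were 233 and 1738 bp. The windows had 9 sites with a single peak per list. In all 9 the RANKL peak was contained in the broad peak, as it was at 5914 of the 5931 such sites of the whole lists. The median width ratio was 0.246 (range 0.0981 to 0.344), against 0.174 over the whole lists. The centres at the 9 sites were 24.0 to 190 bp apart (median 78.5 bp, against 152 bp over the whole lists). Whether the calling settings differed between the lists is not given in the sources used here, and their part in the widths was not tested.

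Of the 15 shared peaks without RANKL in the windows, 6 held several RANKL peaks. These were 2 each in the Rela and Nfkb2 windows and 1 each in the Rel and Relb windows, or 27.3% of the 22 peaks (interval 13.2 to 48.2%), where 16.7% of the whole list did. The gaps between RANKL peaks at these sites numbered 8 and measured 20 to 545 bp, with a median of 109 bp. The RANKL peaks filled 21.8% of the broad peak at the Rela site at chr19:5636512-5638502 and 52.3% at the Nfkb2 site at chr19:46378003-46380648. With peaks closer than 1 kb merged, 19 RANKL regions and 22 regions without RANKL were left in the windows (ratio 0.864). The RANKL list thus led in peaks and not in merged regions, but this ratio lay inside the interval of the unmerged ratio, 0.673 to 2.26. The ratio over the merged whole lists was not taken.

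**Figure D3:**
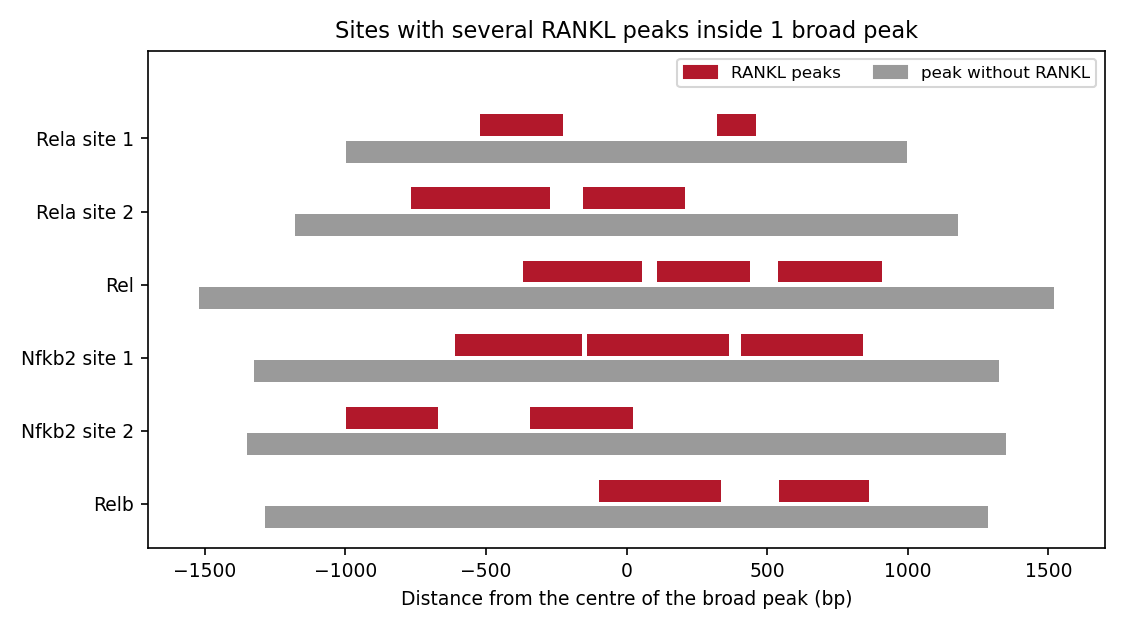
The 6 sites at which a peak without RANKL (grey) held 2 or 3 RANKL peaks (red) are drawn to scale, with the distance from the centre of the broad peak in bp on the x axis. All RANKL peaks lie inside the broad peak, and the gaps between them run from 20 bp at the first Nfkb2 site to 545 bp at the first Rela site.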

How the data were processed

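DNase-seq of 1 library with RANKL and 1 without was used. The authors deposited 1 peak list per library, with a position, a name and a score per peak. Bowtie2 2.0.0, MACS2 and the build mm9 are named in the submitters' processing notes. How the score is defined, which threshold was set and whether a control library served are not given in the sources used. Read depth is unknown, so no value carries a depth-based interval.

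Windows on mm9 were those set for the members, and a peak belonged to a window when it overlapped it. The members and lists were chosen with earlier results of these data known. Peaks with an overlap of 1 bp or more between the lists were classed as shared. Every locus was named, with every peak of a single list, the strongest peaks, those in the highest 10% of their list and those holding 2 or more peaks of the other list. Positions are 1-based. Other genes of the pathway were not placed, because no mm9 annotation was used here. Alternatives were other overlap rules, the upper 50% by score, equal numbers of peaks, merging, other window lengths and each window left out. The overlap code, tested on simulated data with partial overlaps and near misses, classified 2000 of 2000 peaks correctly. For the RANKL list it gave the same total of shared peaks as bedtools 2.31.1. Python 3.11.15, numpy 2.4.6, pandas 2.3.3, scipy 1.17.1 and matplotlib 3.10.9 were used.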

Additional observations from a re-analysis of the deposited data

How the results depend on the processing

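In 55 of 63 recomputed values, a count moved by no more than 1.5 times and a share or ratio stayed inside its interval. This is a weak check, because the intervals are wide and the alternatives reuse many of the same peaks. Counts of peaks of a single list followed the window length: windows 50 kb longer at both ends held 8 RANKL-only peaks of 41 and 12 of 34 found only without RANKL, and windows 20 kb shorter held 2 of 19 and 4 of 14, against 4 of 27 and 7 of 22 as reported. The shared shares stayed inside their intervals, at 80.5 and 64.7% in the longer windows and 89.5 and 71.4% in the shorter ones. Leaving out the Nfkbia window gave 2 RANKL-only peaks, and leaving out the Relb window gave 4 peaks found only without RANKL. With the upper 50% of each list by score, there was 1 peak found only without RANKL and 91.7% of the 12 peaks without RANKL were shared. The interval of that share, 64.6 to 98.5%, held the 68.7% of the whole list so reduced. Of the 7 unshared peaks without RANKL, 6 stood in the lower 50% of their list, as did 78.5% of those of the whole list. The shared share of RANKL peaks ran from 78.9 to 90.9% over the alternatives and the ratio of peak counts from 0.864 to 1.5. Another overlap rule (50% of the shorter peak, or within 1 kb) changed none of the 4 counts and shares. These rules could change nothing here. Every shared RANKL peak lay wholly inside its partner, and the unshared peak closest to the other list was 2.67 kb from it. No paired analysis was possible because each condition had 1 library, which also leaves no replicate to drop. How deep each library was read is unknown, which limits what a missing peak can show.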
